A study of Mus musculus with 30 samples.

Results

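Multipotent progenitors of the MPP3 type, sorted from the bone marrow of 3-month-old mice, were compared for 1 quantity: how far the change between T1 and T2 cells in KOiMOS mice differed from the change between T1 and T2 cells in WTiMOS mice. The change, T2 minus T1 in mean log2(TPM + 1), is called the step, and the KOiMOS step minus the WTiMOS step is called the difference of steps. TPM scales read counts by transcript length and each library to a common total. The groups were T2 cells and T1 cells of KOiMOS mice and T2 cells and T1 cells of WTiMOS mice, with 3 libraries in each, which made 12 of the 30 libraries of the series. Genes were taken when they reached 1 TPM in at least 3 of the 12 libraries, which 12609 of the 24421 listed genes did. All 4 groups share iMOS in the genotype name, the age, the tissue and the sorted cell type. The labels do not say what T1 and T2 stand for, which cells lack or overexpress Bcl11a, or whether T1 and T2 cells came from the same animals. They do not explain iMOS or give the strain, the promoter of any transgene or the number of animals either. The stated aim was the cell-intrinsic role of Bcl11a in MPP3.

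MPP3 are progenitors downstream of blood stem cells that are known for output of granulocytes, monocytes and related myeloid cells. Their RNA carries low levels of genes of several lineages at once, which is called priming. Bcl11a is a zinc finger repressor of transcription that recruits corepressor complexes, and it is known for its need in lymphoid progenitors and for silencing fetal globin genes in red cell precursors.

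Bcl11a itself (chromosome 11, positions 24078056 to 24174123, plus strand, GRCm38) had 69.8, 64.3 and 70.6 TPM in KOiMOS T2 and 68.8, 69 and 73.2 in KOiMOS T1, against 76.3, 85.3 and 73.8 in WTiMOS T2 and 43.8, 48.5 and 43.5 in WTiMOS T1. The 3 WTiMOS T1 libraries were the lowest and the 3 WTiMOS T2 libraries the highest, and the KOiMOS libraries of both kinds overlapped each other between them. The WTiMOS step was 0.78 (adjusted p = 1.04e-05), while the KOiMOS step of -0.04 did not pass the test (adjusted p = 0.803), and the steps differed (log2 -0.82 ± 0.114, adjusted p = 0.000183). Bcl11a RNA was therefore present in both groups labelled KOiMOS, and a TPM summed over the gene cannot tell an intact transcript from one that lacks an exon. KOiMOS and WTiMOS values stand in separate tables, so their levels are set side by side here and were not tested against each other.

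Markers of the sorted population were present. Kit, the stem cell factor receptor of progenitor gates, ranged over libraries within 365 to 418 TPM in KOiMOS T2, 410.1 to 417 in KOiMOS T1, 144 to 170.1 in WTiMOS T2 and 147 to 165 in WTiMOS T1. Slamf1, which marks stem cells and is low on MPP3, was at most 2.79 TPM in any of the 12 libraries, and Cd48, present on MPP3, was at least 209. Flt3, which marks the lymphoid-leaning MPP4 more than MPP3, was at least 62.5 TPM in all 12 libraries, so it was not absent. Total TPM was the same in every library, so sequencing depth is unknown, and 11502 to 12008 genes reached 1 TPM per library. Pearson's r between libraries of 1 group lay within 0.976 to 0.995 over genes. Replicates of KOiMOS spread less than those of WTiMOS, with a median SD of 0.0965 in KOiMOS and 0.221 in WTiMOS on the log2 scale, and WTiMOS had the larger SD in 89.5% of genes. Nothing in the labels says that replicates are separate animals, so p-values measure only the spread between these libraries. In sorted bulk RNA, fewer cells of a type and less RNA per cell cannot be told apart.

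The KOiMOS and WTiMOS steps had a Pearson's r of 0.14 over the 12609 genes, which are not independent replicates. The difference of steps passed limma's moderated test (adjusted p of at most 0.05 over all genes) in 2632 genes, 20.9% of those tested, with 988 higher (7.84%) and 1644 lower (13%) in KOiMOS. Of these, 907 genes differed by at least 2-fold (7.19%), 494 of them higher (3.92%) and 413 lower (3.28%). For 3044 genes (24.1%) the T2 minus T1 values over all pairs of libraries did not overlap between the tables, with 1084 higher (8.6%) and 1960 lower (15.5%). The median of all genes was -0.14 for the difference, -0.04 for the KOiMOS step and 0.10 for the WTiMOS step. The balance of directions depended on scaling: after median-ratio rescaling, which moved the median difference to 0.01, 1465 genes were higher and 917 lower (61.5% higher, in place of 37.5%), and after removing trends on GC content and length 1198 were higher and 1195 lower. Most lists below are therefore given with their median beside the -0.14 of all genes. For lists given below by counts, the median difference was 0.34 for globin and heme genes and 0.25 for T, NK and innate lymphoid genes. It was 0.6 for mature neutrophil, -0.65 for macrophage, 0.36 for plasma cell, -0.53 for stromal and endothelial and -0.12 for sex-linked genes.

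In the same fit 1858 genes changed in KOiMOS (14.7%, with 963 or 7.64% higher and 895 or 7.1% lower in T2) and 3462 in WTiMOS (27.5%, with 2285 or 18.1% higher and 1177 or 9.33% lower in T2). That fit shares 1 estimate of spread between tables whose replicates spread unequally. With the spread of each table alone 4415 genes changed in KOiMOS (35%) and 1554 in WTiMOS (12.3%), while the difference of steps was called in 2640. A step is therefore said to rise or fall below only where both fits called it. Leaving out any 1 of the KOiMOS libraries lowered the count of KOiMOS steps in the common fit alike, to between 1169 and 1291. Among the 2632 genes, 312 had steps called in opposite directions, 161 of them up in KOiMOS and down in WTiMOS and 151 the other way, and 192 of the 312 were opposite in both fits. Of the genes with a higher difference, 408 had a called fall in WTiMOS alone and 323 a called rise in KOiMOS alone. Of those with a lower difference, 933 had a called rise in WTiMOS alone and 323 a called fall in KOiMOS alone. With the spread of each table alone these 4 counts were 243, 472, 359 and 739, so the share of genes called in 1 table alone changed with the estimate of spread.

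**Figure D1:**
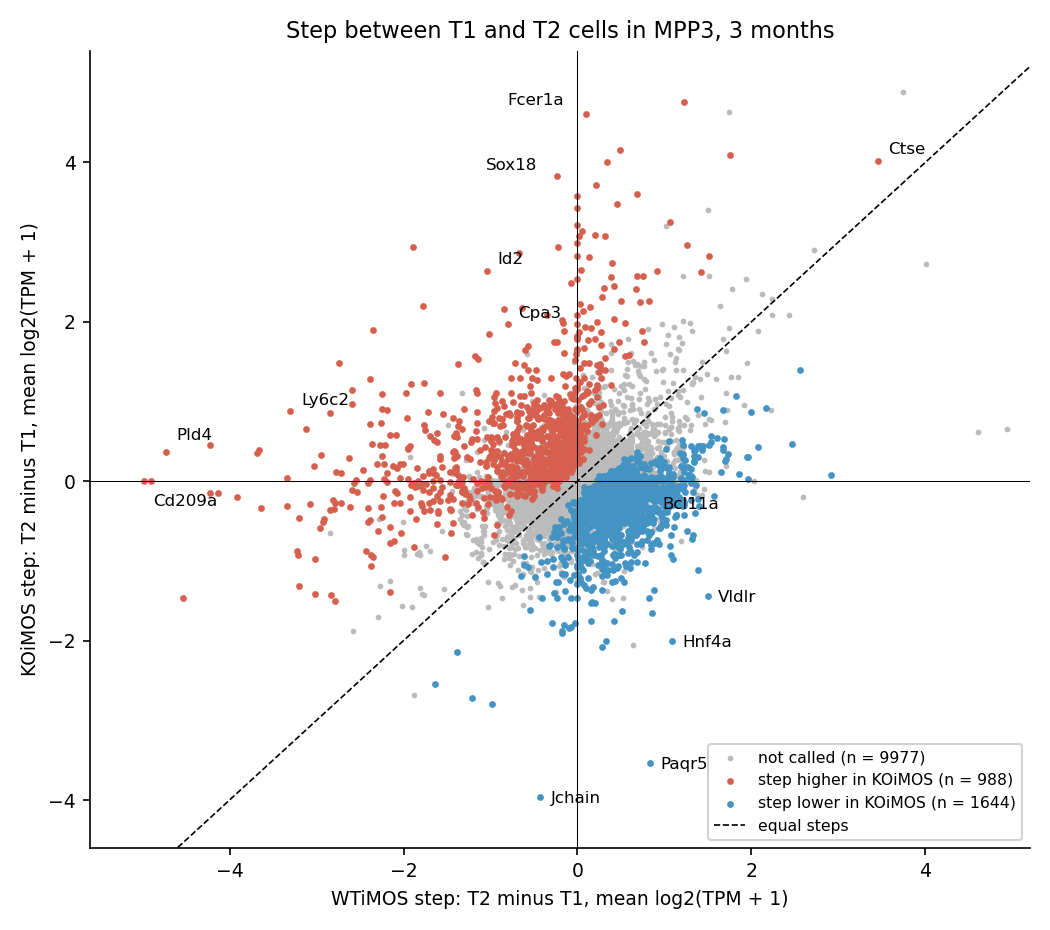
Steps of the 12609 genes, with the KOiMOS step on the vertical and the WTiMOS step on the horizontal axis, both T2 minus T1 of mean log2(TPM + 1) over 3 libraries each. Red points (988) had a higher and blue points (1644) a lower step in KOiMOS by limma's adjusted p, grey points were not called, and the dashed line marks equal steps. Pld4 and Cd209a lie far to the left near a KOiMOS step of 0, and Paqr5 lies low, with a KOiMOS step of -3.53.

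Of 20 monocyte priming genes, 3 rose and 3 fell in KOiMOS, and none rose and 17 fell in WTiMOS, in both fits. In the difference of steps 16 had a higher value and none a lower one, against 7.84% and 13% of all genes. Their median difference was 1.68, with a median step of 0.08 in KOiMOS and -2.10 in WTiMOS. Pld4, an exonuclease of lysosomes in dendritic cells and monocytes (chromosome 12, positions 112760655 to 112768990, plus strand), had 6.72, 8.58 and 8.22 TPM in KOiMOS T2 and 5.54, 6.35 and 5.68 in KOiMOS T1, against 8.84, 11.3 and 8.44 in WTiMOS T2 and 290.3, 272 and 268 in WTiMOS T1. The 3 WTiMOS T1 libraries stood apart from the other 9, and the difference of steps (log2 5.09 ± 0.182, adjusted p = 1.69e-09) was a 34.1-fold one. Ly6c2, the surface marker of inflammatory monocytes, had 216, 172 and 170 TPM in KOiMOS T2 and 103, 95.7 and 102 in KOiMOS T1, against 187, 204 and 89 in WTiMOS T2 and 1532, 1539.7 and 1412 in WTiMOS T1. It rose in KOiMOS and fell in WTiMOS (log2 4.18 ± 0.354, adjusted p = 2.28e-05), though its reads may be shared with the close copy Ly6c1, and how such reads were assigned is not stated by the labels. Irf8, the transcription factor that directs monocyte and dendritic fate, averaged 36.1 ± 3.51 TPM in KOiMOS T2 and 31.9 ± 0.0846 in KOiMOS T1, against 55.3 ± 8.13 in WTiMOS T2 and 235 ± 5.45 in WTiMOS T1 (SD, n = 3 each), and its steps differed (log2 2.25, adjusted p = 3.59e-07). F13a1, a clotting factor subunit of monocytes, rose in KOiMOS by 0.97 and fell by 2.59 in WTiMOS (log2 3.57, adjusted p = 2.87e-07). Csf1r, the receptor for the monocyte growth factor, stepped by -0.23 in KOiMOS and fell by 2.81 in WTiMOS. Cx3cr1, a chemokine receptor of monocytes, had 6.15, 6.47 and 6.39 TPM in KOiMOS T2 and 1.19, 0.614 and 1.13 in KOiMOS T1, against 1.35, 0 and 2.15 in WTiMOS T2 and 11.4, 9.46 and 6.52 in WTiMOS T1. The Cx3cr1 steps differed (log2 4.25, adjusted p = 3.07e-05). Summed TPM of the list was 1807 to 1833 in KOiMOS T2 and 2161 to 2231 in KOiMOS T1, against 2169 to 2284 in WTiMOS T2 and 6205 to 6458 in WTiMOS T1.

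Of 24 granule and neutrophil priming genes, 12 rose and 3 fell in KOiMOS, and 5 rose and 9 fell in WTiMOS, in both fits. Of the 24, 13 had a higher and 2 a lower difference, against 7.84% and 13% of all genes. The median difference was 0.81, and the median step was 0.54 in KOiMOS and -0.81 in WTiMOS. Hp, the haptoglobin of granules and plasma, had 49.6, 42.2 and 43.7 TPM in KOiMOS T2 and 22.5, 26.5 and 24.2 in KOiMOS T1, against 61.2, 68.1 and 34 in WTiMOS T2 and 401, 396 and 353 in WTiMOS T1. KOiMOS T2 libraries all lay above KOiMOS T1 ones, and WTiMOS T2 libraries all lay below WTiMOS T1 ones (log2 3.71 ± 0.263, adjusted p = 6.28e-07). Igsf6, an immunoglobulin family receptor of myeloid cells, rose by 0.89 in KOiMOS and fell by 2.19 in WTiMOS (log2 3.09, adjusted p = 4.56e-07). The inhibitory lectin receptor Clec12a (1.22 and -1.91), the granule protease genes Prtn3 (0.26 and -0.96) and Ctsg (0.94 and -0.84) did so too, with the KOiMOS step given before the WTiMOS step. Mpo, the myeloperoxidase of primary granules, was an exception that rose in both, by 1.06 in KOiMOS and 0.95 in WTiMOS, and its difference did not pass (log2 0.11 ± 0.0668, adjusted p = 0.258). Among genes outside these lists, F10, the clotting factor X, had 12.3, 11.6 and 11.7 TPM in KOiMOS T2 and 0.59, 0.667 and 0.774 in KOiMOS T1, against 0.743, 3.2 and 0.402 in WTiMOS T2 and 5.79, 5.91 and 10 in WTiMOS T1. The F10 steps differed (log2 4.83, adjusted p = 7.6e-06). Lgals3, the galectin of macrophages, rose by 0.66 in KOiMOS and fell by 3.12 in WTiMOS (log2 3.78, adjusted p = 9.14e-07), and Anxa3, an annexin, moved by 0.88 and -0.96. Of the 19 galectin, annexin and S100 genes 5 were higher and 2 lower, against 7.84% and 13% of all genes, with a median difference of 0.17.

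In several of the largest differences WTiMOS T1 cells stood apart. Cd209a, a lectin of monocyte-derived dendritic cells, had 0.0426, 0 and 0 TPM in KOiMOS T2 and 0.0461, 0 and 0 in KOiMOS T1, against 0.0759, 0 and 0 in WTiMOS T2 and 29.5, 33 and 31.8 in WTiMOS T1. Cd177, a neutrophil surface protein, was listed at 0 in all 6 KOiMOS libraries, with 0, 5.52 and 0.161 TPM in WTiMOS T2 and 63.2, 66.2 and 45.8 in WTiMOS T1. Dmkn, known from skin, averaged 5.35 ± 1.11 TPM in KOiMOS T2 and 3.6 ± 0.804 in KOiMOS T1, against 4.7 ± 0.17 in WTiMOS T2 and 105 ± 9.5 in WTiMOS T1. Cd300lb, an activating receptor of myeloid cells, fell by 4.22 in WTiMOS and Mrgpra2a, a receptor gene with the near-identical copy Mrgpra2b, by 3.66, and neither was called in KOiMOS in the common fit. In 418 of the 988 genes with a higher difference (42.3%) the 3 WTiMOS T1 libraries lay above the other 9, against 6.11% of all genes tested. The 3 KOiMOS T2 libraries lay above the other 9 in 278 of the 988 (28.1%), against 7.51% of all genes. A like share, 274 (27.7%), had the 3 KOiMOS T1 libraries below the other 9, against 6.96% of all genes. The 3 WTiMOS T2 libraries lay below in 166 (16.8%), against 3.66%. These shares compare levels across the separate tables, were chosen for description after the values were seen, and were not tested.

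**Figure D2:**
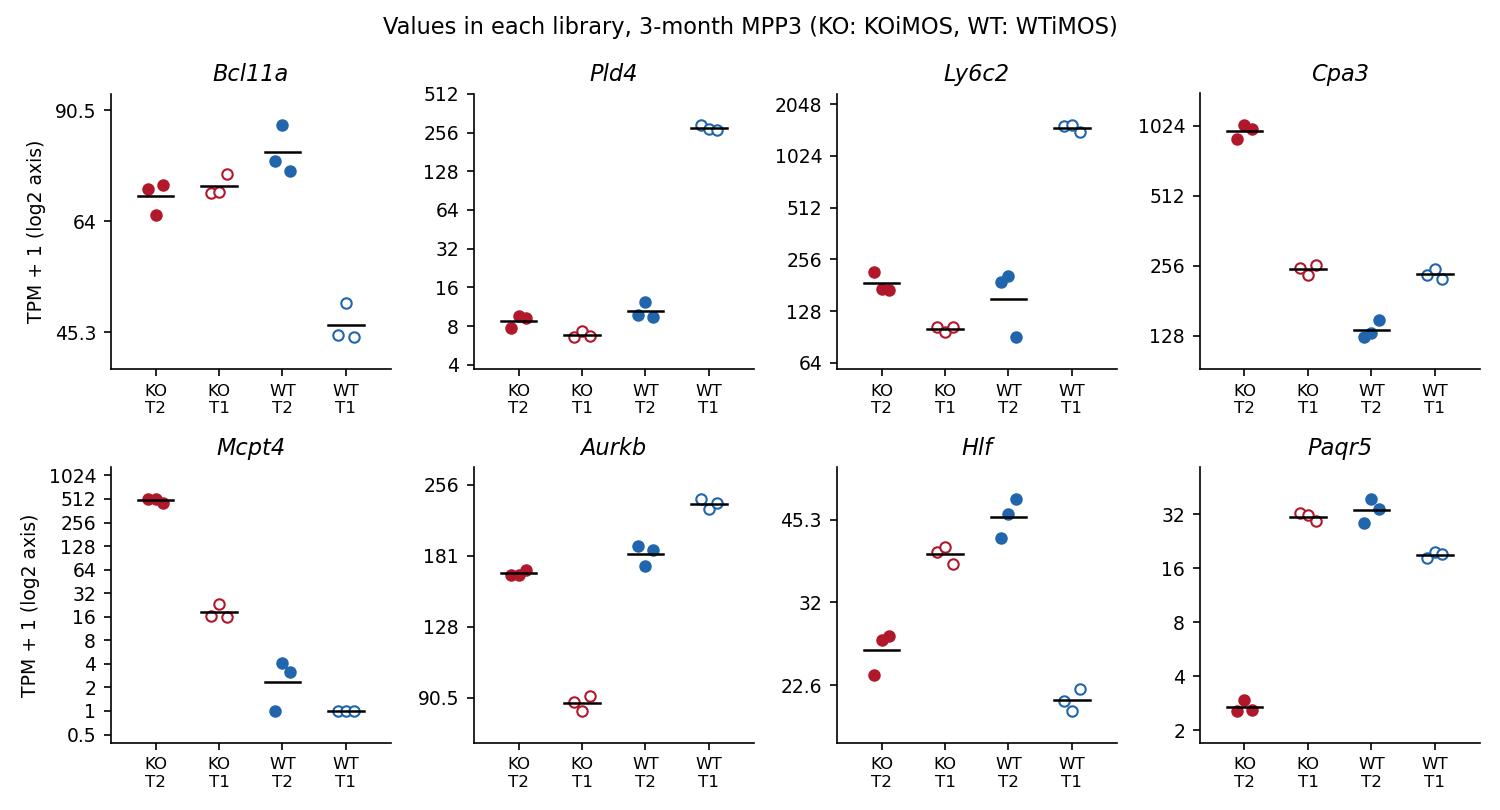
TPM + 1 of 8 genes in each of the 12 libraries, on log2 axes, with KOiMOS in red and WTiMOS in blue, T2 filled and T1 open, and bars at the mean of log2 values. WTiMOS T1 stands apart for Pld4 and Ly6c2, KOiMOS T2 for Cpa3, Mcpt4 and Paqr5, and for Aurkb and Hlf the order of T2 and T1 is opposite in KOiMOS and WTiMOS.

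Of 11 mast cell and basophil proteases, 8 rose in KOiMOS, and none rose and 2 fell in WTiMOS, in both fits. The 2 falls were those of Cpa3 and of Ctsg, whose steps are given above and which is counted in this list too. In the difference of steps 6 were higher and none lower, against 7.84% and 13% of all genes. Over the settings 4 to 7 were higher and 0 to 2 lower, with 4 higher at a pseudocount of 0.1 and 2 lower without WTiMOS T2 replicate 1. The list had a median difference of 2.75 and median steps of 3.07 in KOiMOS and 0.69 in WTiMOS. Cpa3, the mast cell carboxypeptidase (chromosome 3, positions 20215620 to 20242181, minus strand), had 897, 1029 and 995 TPM in KOiMOS T2 and 250.4, 234 and 257 in KOiMOS T1, against 125, 131 and 149 in WTiMOS T2 and 232, 248 and 223 in WTiMOS T1. It rose in KOiMOS and fell in WTiMOS with no overlap of libraries within either table, a 6.82-fold difference (log2 2.77 ± 0.102, adjusted p = 1.69e-09). Mcpt4, a chymase of connective tissue mast cells, had 513, 504 and 457 TPM in KOiMOS T2 and 15.4, 22 and 14.8 in KOiMOS T1, against 0, 3.1 and 2.17 in WTiMOS T2 and 0, 0 and 0 in WTiMOS T1. Its difference (log2 3.53, adjusted p = 0.000313) did not pass with a pseudocount of 0.1, and the WTiMOS values lay at or near 0. Tpsg1, a tryptase, averaged 22 ± 1.27 TPM in KOiMOS T2 and 0.926 ± 0.221 in KOiMOS T1 and was listed at 0 in all 6 WTiMOS libraries. Tpsb2, the tryptase that shares reads with Tpsab1, was 1780.2, 1913 and 1888 TPM in KOiMOS T2 and 0, 59.5 and 38.6 in WTiMOS T2, and its difference did not pass (log2 1.14, adjusted p = 0.709). Prss34 went the other way, with steps of 0.62 in KOiMOS and 4.61 in WTiMOS, though no lower difference was called in this list. Summed protease TPM was 5362 to 5593 in KOiMOS T2 and 827 to 937 in KOiMOS T1, against 686 to 957 in WTiMOS T2 and 1084 to 1331 in WTiMOS T1.

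Receptors and regulators of these cells gave 9 higher (5 with a pseudocount of 0.1) and 3 lower (6 without WTiMOS T2 replicate 1) of 19. All genes gave 7.84% higher and 13% lower. The list had a median difference of 0.57. Fcer1a, the IgE-binding chain of the high-affinity IgE receptor, had 95.4, 97.8 and 88.4 TPM in KOiMOS T2 and 4.2, 1.05 and 4.49 in KOiMOS T1, against 0, 2.94 and 3.44 in WTiMOS T2 and 0.447, 2.21 and 2.05 in WTiMOS T1. The Fcer1a steps differed (log2 4.51, adjusted p = 0.000582, a call lost with a pseudocount of 0.1). Fcer1g, the signalling chain of the same receptor, had 405, 371 and 389 TPM in KOiMOS T2 and 142, 138 and 159 in KOiMOS T1, against 93.5, 98.5 and 97.8 in WTiMOS T2 and 142, 147 and 141 in WTiMOS T1, rising in KOiMOS and falling in WTiMOS (log2 1.97 ± 0.0876, adjusted p = 1.03e-08). Il1rl1, the receptor for interleukin 33, averaged 35.7 ± 3.86 TPM in KOiMOS T2 and 3.37 ± 0.44 in KOiMOS T1, against 0.473 ± 0.414 in WTiMOS T2 and 0.46 ± 0.444 in WTiMOS T1. The Il1rl1 steps differed (log2 3.05, adjusted p = 3.12e-05). Hdc, which makes histamine, rose by 1.61 in KOiMOS and stepped by -0.15 in WTiMOS (log2 1.76, adjusted p = 1.62e-06), and the basophil receptor gene Cd200r3 by 2.94 and -0.22. Srgn, the granule proteoglycan, went the other way, with a KOiMOS step of -0.22 and a WTiMOS step of 0.17 (log2 -0.39, adjusted p = 0.000194). Prg2, Epx and Slc18a2 also had the larger step in WTiMOS. Prg2 stepped by 0.65 in KOiMOS and 4.94 in WTiMOS, Epx by -0.2 and 2.59, and Slc18a2 by 0.19 and 1.19. The Epx difference did not pass (log2 -2.79, adjusted p = 0.243). Id2, which blocks E proteins and favours innate lymphoid, dendritic and basophil fates over B cell fate, had 53.1, 56 and 52.6 TPM in KOiMOS T2 and 8.9, 8.28 and 6.49 in KOiMOS T1, against 16.7, 20.4 and 21.2 in WTiMOS T2 and 48, 28.4 and 50.1 in WTiMOS T1. It rose in KOiMOS and fell in WTiMOS (log2 3.68 ± 0.262, adjusted p = 6.31e-07). Sox18, a transcription factor known from blood vessels, averaged 32.7 ± 1.96 TPM in KOiMOS T2 and 1.39 ± 0.336 in KOiMOS T1, against none above 0.634 in the 6 WTiMOS libraries (log2 4.06, adjusted p = 9.61e-07).

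The Cpa3 promoter is shown because Cpa3 combines one of the smallest p-values with a mast cell role, and because GATA factors, known regulators of mast and red cell genes, bind the letters AGATAA. Sequences are the 250 bases before the start of the gene from RefSeq on GRCm38.p6, 5′ to 3′ on the gene's strand, with motif letters in capitals and matches sought on both strands. For Cpa3 this is chr3:20242182-20242431 on the minus strand, with 1 match, and for the erythropoietin receptor gene Epor, whose steps are given below, chr9:21963577-21963826 on the minus strand, with 1 match on the opposite strand (TTATCT).
Cpa3: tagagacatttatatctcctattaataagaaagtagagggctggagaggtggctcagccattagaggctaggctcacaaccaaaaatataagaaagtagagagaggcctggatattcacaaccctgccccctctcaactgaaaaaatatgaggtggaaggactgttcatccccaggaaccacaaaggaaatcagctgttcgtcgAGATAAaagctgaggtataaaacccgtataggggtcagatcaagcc
Epor: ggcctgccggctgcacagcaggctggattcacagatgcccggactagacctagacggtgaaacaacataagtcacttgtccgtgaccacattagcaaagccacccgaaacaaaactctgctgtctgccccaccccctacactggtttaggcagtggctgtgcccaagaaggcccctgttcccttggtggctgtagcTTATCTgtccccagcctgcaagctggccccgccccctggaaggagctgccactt
Of the promoters of tested genes 5.99% held AGATAA, of those with a higher difference 7.29%, and of those with a lower one 6.84%, and these shares were not tested. Among 8 mast cell protease promoters 2 held it, and among 16 erythroid ones 4. A match is a description and does not show a bound site.

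Of 22 erythroid genes, 17 rose in KOiMOS and 10 in WTiMOS in both fits. The common fit by itself called 17 up in KOiMOS and 18 in WTiMOS, against 7.64% and 18.1% of all genes. In the difference of steps 4 were higher and 3 lower, against 7.84% and 13% of all genes, so the share of lower calls was near that of all genes. The median step was 1.34 in KOiMOS and 1.15 in WTiMOS, and the median difference of 0.32 ranged from -0.10 to 0.50 over the alternative settings. Klf1, the factor that activates red cell genes, rose by 2.29 in KOiMOS and 2.24 in WTiMOS, and the difference of 0.05 ± 0.666 did not pass (adjusted p = 0.969). Ctse, a cathepsin of early red cells, rose in both with a small difference (log2 0.57, adjusted p = 0.0146). Epor, the erythropoietin receptor, had 8.38, 7.03 and 6.08 TPM in KOiMOS T2 and 5.45, 4.07 and 5.08 in KOiMOS T1, against 9.84, 6.12 and 8.93 in WTiMOS T2 and 0.395, 1.1 and 0.534 in WTiMOS T1. Its 3 WTiMOS T1 libraries stood apart at the low end, and the WTiMOS step of 2.47 exceeded the KOiMOS step of 0.47 (log2 -2 ± 0.304, adjusted p = 0.000399). Gata2, a factor of stem, mast and megakaryocyte cells, also had a lower difference (log2 -0.71, adjusted p = 0.00576), as did Nfe2, a factor of platelet and globin genes (log2 -0.45, adjusted p = 0.000271). Hbb-b2, an adult beta globin, had 1246, 1213 and 1279 TPM in KOiMOS T2 and 89, 81.4 and 52.4 in KOiMOS T1, against 14.7, 16.7 and 11 in WTiMOS T2 and 4.17, 3.28 and 2.97 in WTiMOS T1. The Hbb-b2 steps differed (log2 2.33 ± 0.254, adjusted p = 2.46e-05). Of 15 globin and heme genes 4 had a higher and none a lower difference, against 7.84% and 13% of all genes. Globin copies share reads, and Hbb-b1, Hba-a1 and Hbb-bt lost their calls in some settings: Hbb-b1 without T1 replicate 2 of KOiMOS or with a weight per table, and Hba-a1 and Hbb-bt in 15 and 17 of the 22. Alas2, the heme enzyme of maturing red cells, was at most 1.92 TPM in any library. Whether globin RNA came from red cells was not tested.

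Of 14 platelet genes 4 had a lower and none a higher difference, against 13% and 7.84% of all genes, with a median of -0.48. After median-ratio rescaling 3 were lower and 1 higher. Itga2b, the platelet integrin also used to gate progenitors, had 102, 113 and 105 TPM in KOiMOS T2 and 89.7, 87.8 and 85.5 in KOiMOS T1, against 70.9, 76.9 and 77.4 in WTiMOS T2 and 23.5, 22.6 and 20.8 in WTiMOS T1. It rose in both and more in WTiMOS (log2 -1.43 ± 0.107, adjusted p = 9.14e-07). Plek, the pleckstrin of platelets and leukocytes, fell by 1.17 in KOiMOS alone in both fits, with a WTiMOS step of 0.01 (log2 -1.18, adjusted p = 0.00493). Gp5, a platelet glycoprotein, passed narrowly (log2 -1.12, adjusted p = 0.0342) and was lost in 15 of the 22 settings.

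Of 30 proliferation genes, 24 had a higher difference of steps and none a lower one, against 7.84% and 13% of all genes, with a median of 1. In KOiMOS 25 rose and none fell in the common fit (median step 0.78), while in WTiMOS 12 fell and 2 rose (median step -0.22), and 5 of the falls held with the spread of its table alone. Aurkb, the mitotic kinase Aurora B, had 164, 164 and 168 TPM in KOiMOS T2 and 87.9, 83.9 and 90.5 in KOiMOS T1, against 189, 171 and 185 in WTiMOS T2 and 238, 226 and 233 in WTiMOS T1. Within each table T2 and T1 libraries did not overlap, and the order was opposite (log2 1.27 ± 0.0798, adjusted p = 2.87e-07). Rrm2, the ribonucleotide reductase subunit made in S phase, had 170.4, 167 and 179 TPM in KOiMOS T2 and 88.7, 93.1 and 97.8 in KOiMOS T1, against 245, 259.7 and 293 in WTiMOS T2 and 381, 383 and 407 in WTiMOS T1. The Rrm2 steps differed (log2 1.43 ± 0.0957, adjusted p = 4.56e-07). Plk1, the polo-like kinase of mitosis, rose by 0.96 in KOiMOS and fell by 0.38 in WTiMOS (log2 1.34, adjusted p = 3.36e-06). For Nusap1, a spindle protein, the steps were 0.91 and -0.26, for Top2a, the DNA topoisomerase of dividing cells, 0.79 and -0.40, and for the cyclin gene Ccnb2 0.71 and -0.29, in the order KOiMOS, WTiMOS. The 6 genes that did not pass were Mcm2, Mcm3, Mcm4, Mcm5, Mcm6 and Pcna, which load or clamp the DNA replication machinery, and their differences lay between -0.21 and 0.16. Mki67, the common label of cycling cells, was among the 24, with 19.7 ± 3.16 TPM in KOiMOS T2 and 11 ± 0.306 in KOiMOS T1, against 17.9 ± 2.28 in WTiMOS T2 and 22.7 ± 0.97 in WTiMOS T1 (SD, n = 3 each). The T2 minus T1 values of Pcna did not overlap between the tables although its difference did not pass. Without WTiMOS T2 replicate 1, 2 proliferation genes had a lower difference. In 23 of the 30 genes (76.7%) the 3 KOiMOS T1 libraries lay below the other 9, against 6.96% of all genes. WTiMOS T1 lay above the other 9 in 10 (33.3%) and KOiMOS T2 in 5 (16.7%), against 6.11% and 7.51%. These shares compare levels across the separate tables and were not tested. Levels alone do not show how many cells were dividing.

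**Figure D3:**
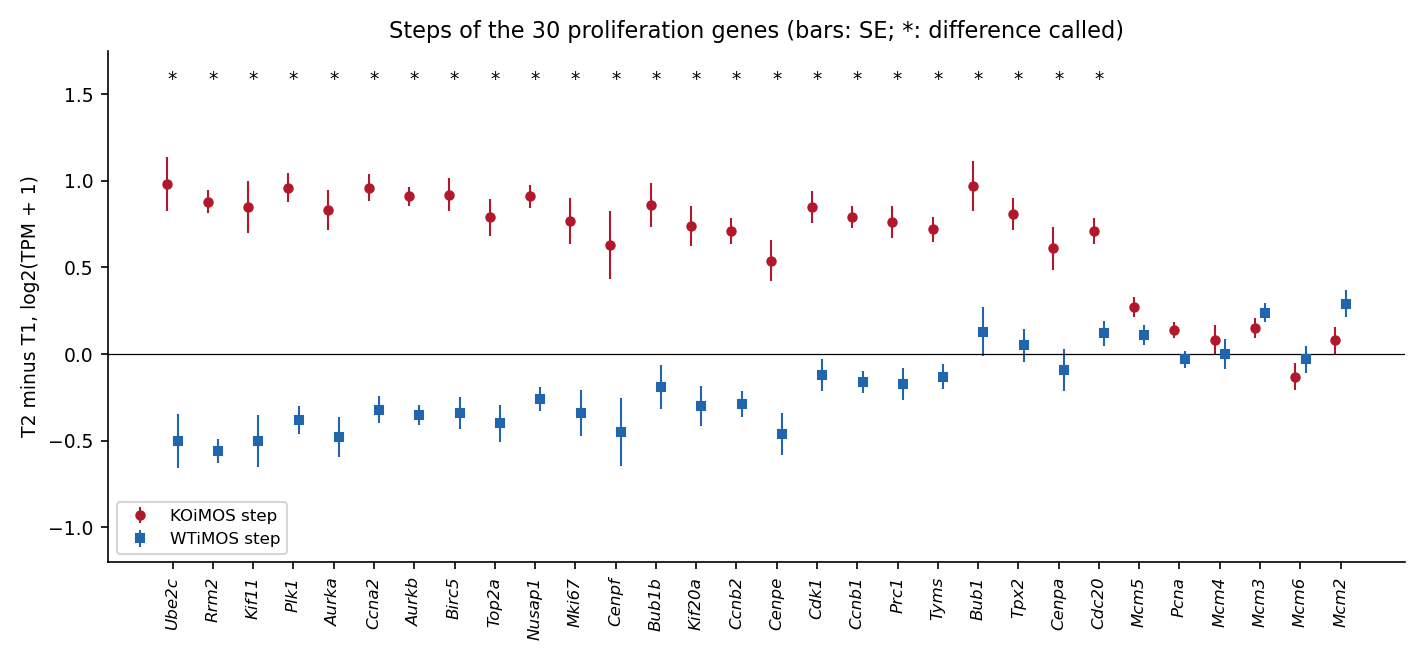
KOiMOS step (red circles) and WTiMOS step (blue squares) of the 30 proliferation genes, T2 minus T1 in log2(TPM + 1), with bars of 1 standard error of the limma fit and stars where the difference was called. The 24 starred genes have KOiMOS steps above their WTiMOS steps, and the difference did not pass the test for the 5 Mcm genes and Pcna on the right, whose steps lie closer together.

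Promoters of 3 of these genes are shown because late cell cycle genes are known to carry the cell cycle genes homology region, TTTGAA, through which the DREAM complex represses them in resting cells. Ccnb2 (chr9:70421555-70421804) held 1 match, Top2a (chr11:99024190-99024439) 2 matches, the second on the opposite strand (TTCAAA), and Cdk1 (chr10:69352913-69353162) 2 matches, and all 3 genes lie on the minus strand.
Ccnb2: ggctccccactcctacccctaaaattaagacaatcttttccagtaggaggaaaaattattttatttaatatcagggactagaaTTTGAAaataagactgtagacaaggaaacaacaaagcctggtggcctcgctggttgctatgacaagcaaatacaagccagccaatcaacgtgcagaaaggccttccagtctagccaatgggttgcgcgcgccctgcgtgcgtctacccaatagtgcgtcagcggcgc
Top2a: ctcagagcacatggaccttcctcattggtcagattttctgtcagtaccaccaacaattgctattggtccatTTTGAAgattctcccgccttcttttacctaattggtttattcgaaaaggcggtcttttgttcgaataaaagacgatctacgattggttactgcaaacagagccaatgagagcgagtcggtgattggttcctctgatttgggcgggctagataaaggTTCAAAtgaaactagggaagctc
Cdk1: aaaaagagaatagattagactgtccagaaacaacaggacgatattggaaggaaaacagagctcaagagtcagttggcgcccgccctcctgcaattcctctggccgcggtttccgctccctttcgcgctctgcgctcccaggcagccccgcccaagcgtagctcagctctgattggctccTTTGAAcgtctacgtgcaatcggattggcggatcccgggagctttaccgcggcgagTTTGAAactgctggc
The letters stood in 8 of 25 proliferation promoters (32%), in 16.7% of promoters of genes with a higher difference, in 9.2% of those with a lower one and in 10.6% of those of all tested genes. They stood in 16.3% of all 27025 mouse promoters of the RefSeq set. Other lists held them in 3 of 8 mast cell protease promoters (37.5%) and 3 of 19 monocyte ones (15.8%). The stem cell list held them in 1 of 20 (5%) and the erythroid list in 1 of 16 (6.25%). The other motifs sought were TGACCA, reported as bound by Bcl11a, at 13.7% of higher, 10.3% of lower and 9.77% of all tested, and GGAAGT, the core of ETS sites, at 24.7%, 23.5% and 24.3%. None of these shares was tested, and they are descriptions of a window of 250 bases.

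Of 27 stem cell regulators, 6 fell and 2 rose in KOiMOS and 1 fell and 10 rose in WTiMOS in both fits. In the difference of steps 11 had a lower and 1 a higher difference, against 13% and 7.84% of all genes, with a median of -0.64 and median steps of -0.22 in KOiMOS and 0.55 in WTiMOS. Hlf, a transcription factor that keeps stem cells quiescent, had 22.6, 26.3 and 26.8 TPM in KOiMOS T2 and 38.6, 39.3 and 36.6 in KOiMOS T1, against 40.9, 45.4 and 48.4 in WTiMOS T2 and 20.2, 19.3 and 21.3 in WTiMOS T1. The 3 KOiMOS T2 libraries lay below the 3 T1 libraries, and the 3 WTiMOS T2 libraries above theirs (log2 -1.69 ± 0.142, adjusted p = 2.62e-06). Hoxa9, a homeobox gene of stem and progenitor cells, had 49.7, 50.7 and 54.2 TPM in KOiMOS T2 and 63.1, 62.7 and 62.6 in KOiMOS T1, against 70, 64.6 and 74.2 in WTiMOS T2 and 32.1, 33.1 and 34.4 in WTiMOS T1. The Hoxa9 steps differed (log2 -1.33 ± 0.11, adjusted p = 2.23e-06). Meis1, its binding partner, fell by 0.22 in KOiMOS and rose by 0.87 in WTiMOS (log2 -1.09, adjusted p = 4.93e-06). Procr, a surface marker of stem cells, stepped by -0.22 in KOiMOS and rose by 1.05 in WTiMOS (log2 -1.27, adjusted p = 0.000606). Ly6a, the Sca-1 antigen of the progenitor gate, fell in both and more in KOiMOS (log2 -0.51, adjusted p = 0.0116). The Hoxa9 promoter window (chr6:52227371-52227620, minus strand) is shown as a stem cell gene whose window held TGACCA once.
Hoxa9: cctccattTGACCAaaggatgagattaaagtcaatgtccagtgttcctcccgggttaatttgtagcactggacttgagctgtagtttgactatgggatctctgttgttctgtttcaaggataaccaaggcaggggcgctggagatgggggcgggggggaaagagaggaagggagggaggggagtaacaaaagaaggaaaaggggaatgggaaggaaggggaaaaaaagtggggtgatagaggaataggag
TGACCA stood in 3 of 20 promoters of the stem cell list (15%), 0 of 19 of the monocyte list, 2 of 25 of the proliferation list (8%), 3 of 8 of the mast cell protease list (37.5%) and 2 of 16 of the erythroid list (12.5%). Neither these shares nor binding there was tested.

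Among 14 genes of surface proteins used to gate progenitors, 8 had a lower and 2 a higher difference, against 13% and 7.84% of all genes, with a median of -0.64. Cd48 fell in KOiMOS and stepped by 0.01 in WTiMOS, with 209, 231 and 212 TPM in KOiMOS T2 and 440.1, 426 and 423 in KOiMOS T1, against 306, 320.1 and 292 in WTiMOS T2 and 319.7, 319.8 and 274 in WTiMOS T1. The Cd48 steps differed (log2 -0.99 ± 0.0928, adjusted p = 6.3e-06). Cd34 rose in both, by 0.25 in KOiMOS and 0.90 in WTiMOS (log2 -0.65, adjusted p = 5.8e-05). Fcgr3, the Fc receptor that marks myeloid progenitors, rose by 1.48 in KOiMOS and 1.95 in WTiMOS, and the difference did not pass (log2 -0.47, adjusted p = 0.239). Kit did not pass either (log2 -0.12, adjusted p = 0.449). T1 and T2 cells thus differed in RNA of several of these markers, and the part of the sort in the steps was not tested.

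**Figure D4:**
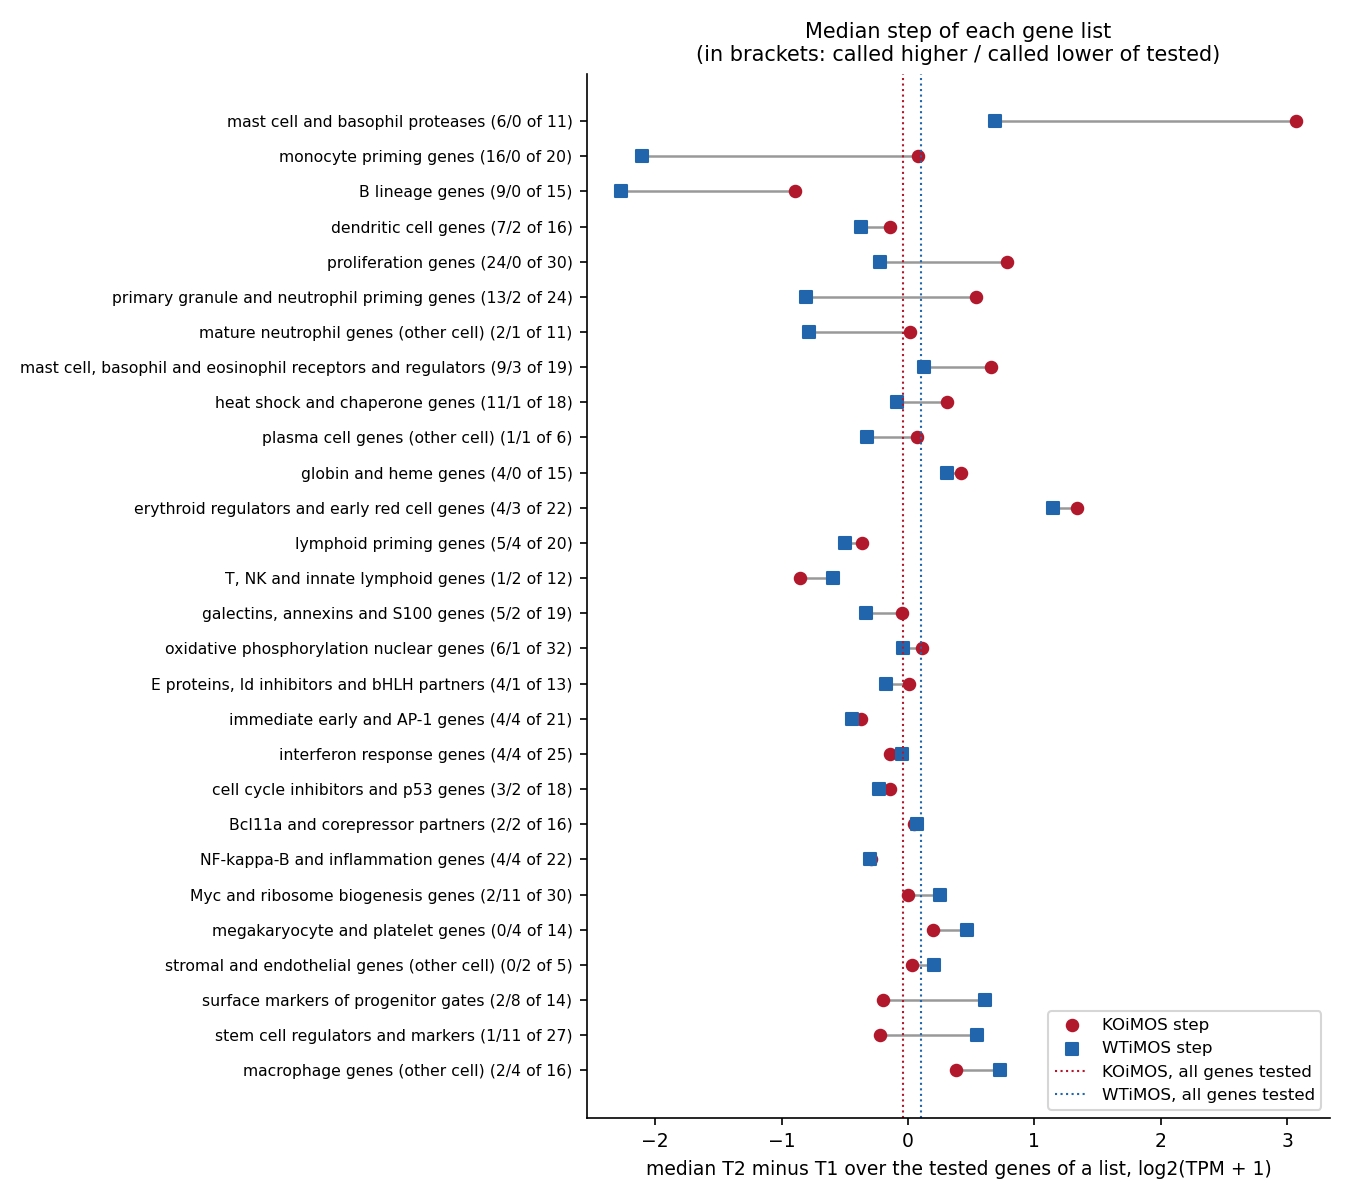
Median step of each of 28 gene lists, T2 minus T1 in log2(TPM + 1), in KOiMOS (red circles) and WTiMOS (blue squares), ordered by the median difference, with dotted lines at the medians of all 12609 genes. Numbers in brackets are members called higher and lower of those tested. Mast cell proteases, monocyte and B lineage genes lie at the top, stem cell and surface marker genes near the bottom with KOiMOS to the left of WTiMOS.

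Of 15 B lineage genes, 7 fell in KOiMOS and 14 in WTiMOS in both fits. In the difference of steps 9 were higher and none lower, against 7.84% and 13% of all genes, and with a pseudocount of 0.1 4 were higher. The median difference was 1.40, with median steps of -0.89 in KOiMOS and -2.27 in WTiMOS. Dntt, the terminal transferase of early lymphoid cells, had 10.2, 11.8 and 11.8 TPM in KOiMOS T2 and 14.2, 13.5 and 11.7 in KOiMOS T1, against 53.4, 37 and 44.6 in WTiMOS T2 and 191, 155 and 170.2 in WTiMOS T1. It fell in WTiMOS and was not called in KOiMOS, where T1 libraries were at 14.2, 13.5 and 11.7 TPM (log2 1.72 ± 0.189, adjusted p = 2.56e-05). Cd79a, a chain of the B cell receptor, averaged 1.88 ± 1.57 TPM in KOiMOS T2 and 5.77 ± 2.08 in KOiMOS T1, against 14.5 ± 5.7 in WTiMOS T2 and 136 ± 19.1 in WTiMOS T1. The Cd79a steps differed (log2 1.88, adjusted p = 0.0116), and Il7r, the receptor for interleukin 7, stepped by -0.33 and -2.26 (log2 1.93, adjusted p = 0.00578, lost with a pseudocount of 0.1). Summed B lineage TPM was 76.6 to 92.8 in KOiMOS T2 and 129.7 to 147 in KOiMOS T1, against 263 to 346 in WTiMOS T2 and 1114 to 1409.7 in WTiMOS T1. The mature B cell marker Ms4a1 was listed at 0 in 11 of the 12 libraries. Flt3, the cytokine receptor of lymphoid priming, went against these, with 62.5, 72.6 and 71.6 TPM in KOiMOS T2 and 119, 116 and 114 in KOiMOS T1, against 133, 125 and 181 in WTiMOS T2 and 68.5, 91.1 and 103 in WTiMOS T1. It fell in KOiMOS and rose in WTiMOS (log2 -1.48 ± 0.204, adjusted p = 0.000173). Of 20 lymphoid priming genes 5 were higher and 4 lower (median 0.25), against 7.84% and 13% of all genes. Among 12 T, NK and innate lymphoid genes 1 was higher and 2 lower, near the shares of all genes. The lower ones were Nkg7, a granule protein gene (-0.74 in KOiMOS, 0.31 in WTiMOS), and Lat, a signalling adaptor (-1.18 and -0.04). The medians of the T and NK, NF-kappa-B and interferon lists changed sign over the settings. Among 16 dendritic cell genes 7 had a higher and 2 a lower difference (median 1.08), and this list shares Cd209a, Id2, Dntt and Flt3 with those above.

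Myc, the growth regulator, had 529, 539.7 and 532 TPM in KOiMOS T2 and 661, 656 and 661 in KOiMOS T1, against 669, 781 and 732 in WTiMOS T2 and 531, 522 and 557 in WTiMOS T1. It fell in KOiMOS and rose in WTiMOS (log2 -0.74 ± 0.0732, adjusted p = 1.09e-05), and of 30 Myc and ribosome biogenesis genes 11 were lower and 2 higher (median -0.25, and -0.09 after median-ratio rescaling, where all genes had 0.01). In the fit of all 30 libraries 7 were lower and none higher. For each list in this paragraph the shares of all genes in the main fit were 7.84% higher and 13% lower. Polr1b, a subunit of the polymerase for ribosomal RNA, averaged 59.9 ± 4.9 TPM in KOiMOS T2 and 70.4 ± 1.24 in KOiMOS T1, against 58.9 ± 3.32 in WTiMOS T2 and 30 ± 3.69 in WTiMOS T1. The Polr1b steps differed (log2 -1.19, adjusted p = 4.33e-05), and Nop56, a nucleolar protein, stepped by -0.15 and 0.30. Among 18 heat shock and chaperone genes 11 had a higher and 1 a lower difference (median 0.40). Hspa8, the constitutive chaperone, had 5040.4, 5456 and 5323 TPM in KOiMOS T2 and 4467, 4323 and 4257 in KOiMOS T1, against 4070, 4426 and 4482 in WTiMOS T2 and 5043, 5005 and 4792 in WTiMOS T1. The Hspa8 steps differed (log2 0.47 ± 0.0595, adjusted p = 8.49e-05). Hspa1a, the stress-induced member that shares reads with Hspa1b, averaged 23.3 ± 3.69 TPM in KOiMOS T2 and 7.11 ± 0.506 in KOiMOS T1, against 0.72 ± 0.827 in WTiMOS T2 and 2.73 ± 1.19 in WTiMOS T1. The Hspa1a steps differed (log2 2.75, adjusted p = 0.000491). Immediate early genes, which handling of cells can raise, gave 4 higher and 4 lower of 21 (median 0.10), with median steps of -0.37 in KOiMOS and -0.44 in WTiMOS. Atf3 among them fell by 1.71 in WTiMOS and stepped by 0.13 in KOiMOS (log2 1.83, adjusted p = 0.000536), and Btg2 fell in both and more in KOiMOS (log2 -0.55, adjusted p = 0.00615). Jun fell in both as well, and its difference (log2 -0.37, adjusted p = 0.00186) was lost after median-ratio rescaling, in the fit of all 30 libraries and after removal of GC and length trends. Of 22 NF-kappa-B and inflammation genes 4 were higher and 4 lower (median -0.13), with the inhibitor gene Nfkbia higher (log2 0.75, adjusted p = 4.36e-05) and the chemokine genes Ccl3 (log2 -1.81, adjusted p = 7.98e-05) and Ccl4 (log2 -1.51, adjusted p = 7.98e-05) lower. Interferon response genes likewise gave 4 and 4 of 25 (median 0.05), with Ifitm1 falling by 0.57 in KOiMOS and rising by 0.63 in WTiMOS, and Ifi27l2a falling by 0.98 in KOiMOS and 3.02 in WTiMOS.

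Of the E protein and Id list 4 of 13 were higher and 1 lower (median 0.10). For this and the other lists in this paragraph the shares of all genes were 7.84% higher and 13% lower. Besides Id2, the Id1 gene fell by 1.41 in WTiMOS with a KOiMOS step of 0.36, and Id3 stepped by -0.65 in KOiMOS and fell by 2.03 in WTiMOS, a difference lost with a pseudocount of 0.1. A list of cell cycle inhibitor, D cyclin and p53 genes gave 3 higher and 2 lower of 18 (median 0.04). The higher ones were Pmaip1 and the cyclin genes Ccnd3 and Ccnd1, which are not inhibitors. The inhibitor gene Cdkn1a fell in both and more in KOiMOS (log2 -0.44, adjusted p = 0.01). Pmaip1, the death-promoting Noxa, averaged 2.95 ± 0.384 TPM in KOiMOS T2 and 1.42 ± 0.472 in KOiMOS T1, against 15.3 ± 1.82 in WTiMOS T2 and 83.7 ± 7.83 in WTiMOS T1. The Pmaip1 steps differed (log2 3.10 ± 0.233, adjusted p = 9.14e-07). Ccnd3, a cyclin of the G1 phase, rose by 0.36 in KOiMOS and fell by 0.66 in WTiMOS (log2 1.01, adjusted p = 5.22e-07). Nuclear genes of oxidative phosphorylation gave 6 higher and 1 lower of 32 (median 0.14), but 13 higher without WTiMOS T2 replicate 1 and 3 without KOiMOS T2 replicate 1, with Cox4i1 the one of smallest p (log2 0.68, adjusted p = 0.000391). The list of Bcl11a and its corepressor partners, which also held Lmo2, gave 2 higher and 2 lower of 16 (median 0.03, from -0.04 to 0.19 over the settings). The share of lower calls was near that of all genes. The lower ones were Bcl11a itself and Lmo2, a bridge protein of the GATA complexes, so no corepressor gene of the list was called lower. Lmo2 had a KOiMOS step of -0.20 and a rise of 0.75 in WTiMOS (log2 -0.95, adjusted p = 0.00232). Rbbp4 and Hdac2, subunits of histone deacetylase complexes, were the higher ones (log2 0.33, adjusted p = 0.003, lost in the fit of all 30 libraries, and log2 1.2, adjusted p = 0.0153, lost with a weight per table).

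The largest lower differences belonged to genes of varied kinds, and several of them fell in KOiMOS and rose in WTiMOS. Paqr5, a membrane progestin receptor (chromosome 9, positions 61953481 to 62026856, minus strand), had 1.57, 1.96 and 1.59 TPM in KOiMOS T2 and 31.4, 30.8 and 28.3 in KOiMOS T1, against 27.8, 38.1 and 33.1 in WTiMOS T2 and 17.2, 18.7 and 18.2 in WTiMOS T1. The KOiMOS T2 libraries stood apart from the other 9 (log2 -4.35 ± 0.186, adjusted p = 8.14e-09). Hnf4a, a nuclear receptor known from liver and gut, had 5.25, 5.95 and 4.51 TPM in KOiMOS T2 and 22.8, 24.3 and 24.2 in KOiMOS T1, against 10.5, 11.4 and 16.5 in WTiMOS T2 and 4.05, 6.57 and 5.76 in WTiMOS T1. The Hnf4a steps differed (log2 -3.09 ± 0.264, adjusted p = 2.86e-06). Vldlr, a lipoprotein receptor, had 3.87, 4.61 and 3.79 TPM in KOiMOS T2 and 12.8, 12.7 and 12.8 in KOiMOS T1, against 27.5, 33 and 29.5 in WTiMOS T2 and 10.3, 10 and 9.52 in WTiMOS T1. The Vldlr steps differed (log2 -2.94 ± 0.174, adjusted p = 1.8e-07). Both fell in KOiMOS and rose in WTiMOS, and so did Nefh, a neurofilament gene (-1.65 in KOiMOS, 0.86 in WTiMOS), and Pdcd1lg2, the gene of the PD-1 ligand PD-L2 (-0.98 and 1.10). Fam46a fell by 2.08 in KOiMOS with a WTiMOS step of 0.28, and Ltc4s, which makes leukotriene C4, fell by 1.63 with a WTiMOS step of 0.51. Fcna, the ficolin of macrophages, rose by 2.92 in WTiMOS with a KOiMOS step of 0.08 (log2 -2.84, adjusted p = 3.54e-05). Fstl1, a secreted glycoprotein, Cd209f, a lectin gene, and the miRNA gene Mir19b-1 completed the 12 largest lower differences with Jchain below, with differences of -2.34, -2.28 and -2.18. Jchain, the joining chain of plasma cell antibodies, had 0.0919, 0.219 and 0.263 TPM in KOiMOS T2 and 21.5, 38.9 and 6.08 in KOiMOS T1, against 0, 0 and 0.442 in WTiMOS T2 and 0, 2.42 and 0.0271 in WTiMOS T1, so its fall rested on KOiMOS T1 libraries that differed among themselves (log2 -3.53, adjusted p = 0.00531, lost with a weight per table).

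Markers of other cells moved with some of these results. Their counts of higher and lower calls stand beside 7.84% and 13% of all genes. Mature neutrophil genes (15 listed, 11 tested, 2 higher and 1 lower) summed to 50.2 to 53.6 TPM in KOiMOS T2 and 54 to 61.7 in KOiMOS T1, against 49.2 to 557 in WTiMOS T2 and 86.3 to 363 in WTiMOS T1. Ltf, the lactoferrin of neutrophil granules, was 0.0614, 37.5 and 0 TPM in the WTiMOS T2 libraries and 7.34, 8.49 and 1.63 in the WTiMOS T1 ones, so replicate 2 of T2 stood apart, and at most 0.287 in KOiMOS. Retnlg, which marks mature neutrophils, was listed at 0 in 9 of the 12 libraries. Apoe, a lipid carrier of macrophages, had 361, 342 and 369 TPM in KOiMOS T2 and 556, 605 and 612 in KOiMOS T1, against 383, 366 and 344 in WTiMOS T2 and 315, 319.7 and 278 in WTiMOS T1. The Apoe steps differed (log2 -0.98, adjusted p = 5.17e-06). Macrophage genes (16 tested, 2 higher and 4 lower) summed to 631 to 670.4 TPM in KOiMOS T2 and 759 to 806 in KOiMOS T1, against 521 to 572 in WTiMOS T2 and 348 to 416 in WTiMOS T1. Apoe made up much of this sum. The median step of the tested macrophage genes was 0.38 in KOiMOS and 0.73 in WTiMOS, so most did not fall with the KOiMOS sum. C1qb, a complement gene of macrophages, had 44.7, 45.3 and 43.2 TPM in KOiMOS T2 and 30.9, 29 and 31.6 in KOiMOS T1, against 29.4, 27.1 and 39.5 in WTiMOS T2 and 12.7, 8.89 and 6.74 in WTiMOS T1. The C1qb steps differed (log2 -1.15, adjusted p = 0.00563), whereas the macrophage marker Adgre1 was higher (log2 1.86, adjusted p = 0.00169). Plasma cell genes (6 tested, 1 higher and 1 lower) summed to 201 to 210.3 in KOiMOS T2 and 184 to 218 in KOiMOS T1, against 246 to 279 in WTiMOS T2 and 324 to 365 in WTiMOS T1. Stromal and endothelial genes (5 tested, none higher and 2 lower, Emcn and Pdgfrb) summed to 151 to 174 in KOiMOS T2 and 133 to 141 in KOiMOS T1, against 136 to 168 in WTiMOS T2 and 103 to 114 in WTiMOS T1, with Lepr and Cdh5 at or near 0. T cell markers Cd3e and Cd8a were at most 1.54 and 0.106 TPM. The sort could also hold mast cells, whose protease sums are given above. The part of such cells in the monocyte, granule, mast cell, globin and Jchain results was not tested. In each of the 22 settings 14 or more monocyte and 13 or more granule genes were higher. No setting took out or modelled such cells, so these counts do not bear on their part.

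Eif2s3y, on the Y chromosome, had 32.9, 34.6 and 32.7 TPM in KOiMOS T2 and 67.8, 67.2 and 65.1 in KOiMOS T1, against 20.7, 25.9 and 43.8 in WTiMOS T2 and 45.7, 58.4 and 54.5 in WTiMOS T1. It had steps of -0.98 and -0.85 and a difference that did not pass (log2 -0.12 ± 0.271, adjusted p = 0.79). Xist, the RNA that coats the inactive X chromosome of females, had 29.1, 29.2 and 28.3 TPM in KOiMOS T2 and 21.6, 22.8 and 21 in KOiMOS T1, against 37.1, 40.5 and 33.4 in WTiMOS T2 and 29.1, 32.7 and 28.2 in WTiMOS T1. Its difference did not pass (log2 0.10 ± 0.141, adjusted p = 0.672). None of the 5 sex-linked genes was called in the difference, and leaving out all X- and Y-linked genes gave 2544 called genes of 12186. The part of sex-linked RNA in the steps was not tested.

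The WTiMOS step of MPP3 at 3 months can be set beside those of the other WTiMOS tables, MPP3 at 24 months and MPP4 at 3 and at 24 months, which share no library with it. In those 3 tables T1 and T2 differed far more in sex-linked RNA. Eif2s3y stepped there by 5.34, 6.25 and 6.7 in that order, and Xist by -1.72, -2.03 and -1.19. The part of this in the values below was not tested. Over the 12609 genes the 3-month WTiMOS MPP3 step had a Pearson's r of 0.48 with the 24-month MPP3 step, 0.03 with the 3-month MPP4 step and 0.39 with the 24-month MPP4 step. The KOiMOS step had 0.10, 0.04 and -0.08 with the same 3 steps. The r of 0.03 lies below the 0.14 between the KOiMOS and WTiMOS steps of MPP3. Among the 933 genes called up in WTiMOS alone, 77.8% had a 24-month MPP3 step above 0, and among the 408 called down in WTiMOS alone 28.9%, against 64% of all genes. For the genes with opposite steps, 74.2% of the 151 that were up in WTiMOS had a 24-month MPP3 step above 0, and 28.6% of the 161 that were down in WTiMOS. The KOiMOS step lay above all 4 WTiMOS steps in 604 of the 988 genes with a higher difference (61.1%), against 10.5% of all genes, and below all 4 in 403 of the 1644 with a lower one (24.5%), against 11.1%. Since 1 of the 4 WTiMOS steps chose these genes, the shares are a description. All 12 of the largest higher differences lay above and all 12 of the largest lower ones below the 4 WTiMOS steps. Bcl11a stepped by -0.04 in KOiMOS MPP3, against 0.78 and 1.73 in WTiMOS MPP3 of 3 and 24 months and 0.71 and 1.37 in WTiMOS MPP4. Cpa3 rose by 1.97 in KOiMOS and stepped by -0.80, -2.41, -0.34 and -2.81 in the 4 WTiMOS tables in that order. Proliferation genes had a median step of 0.78 in KOiMOS and of -0.22, -0.20, -1.23 and -0.17 in the WTiMOS tables, where the medians of all genes were -0.04 in KOiMOS and 0.10, 0.16, -0.66 and 0.40. Stem cell genes had -0.22 in KOiMOS and 0.55, 0.93, -0.71 and 0.79, so the 3-month MPP4 table also lay below 0.

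**Figure D5:**
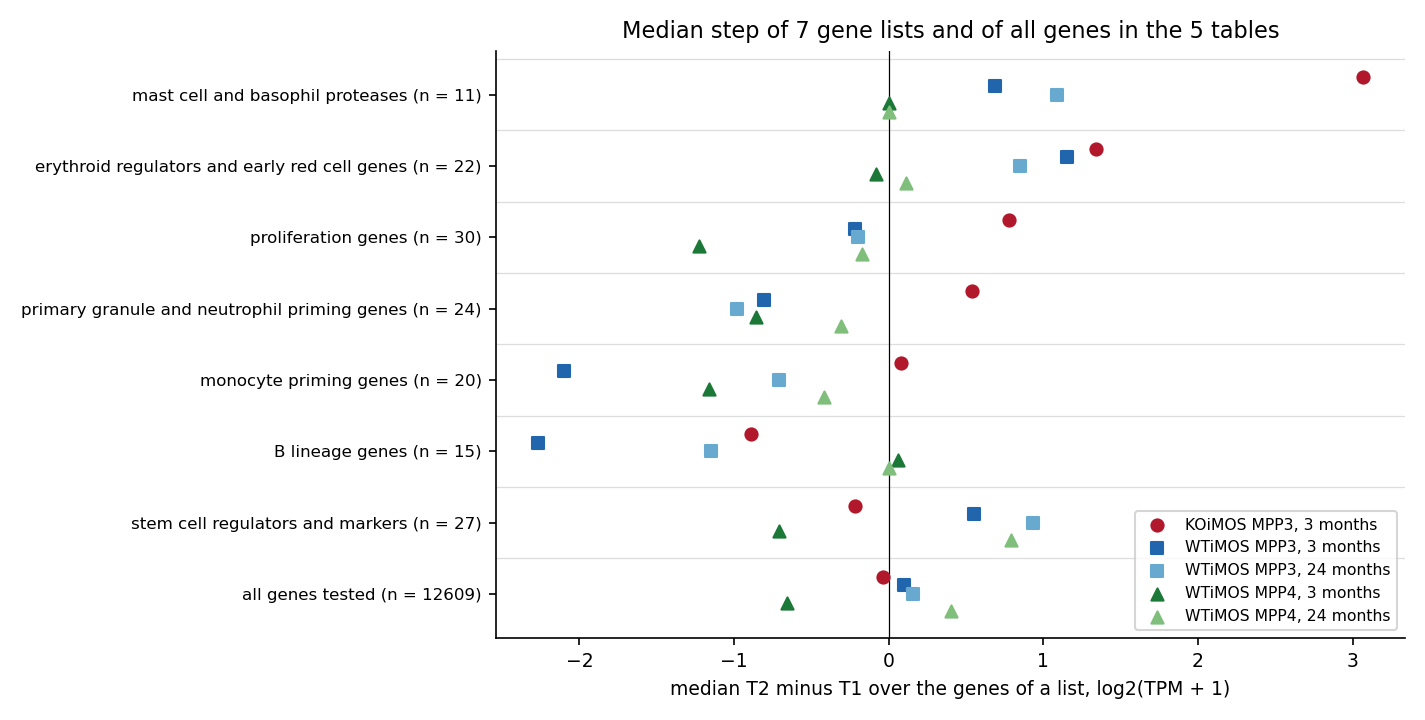
Median step of 7 gene lists and of all 12609 genes, T2 minus T1 in log2(TPM + 1), in the KOiMOS MPP3 table (red circles) and the 4 WTiMOS tables (blue squares for MPP3, green triangles for MPP4). Only for proliferation, granule and monocyte genes among the 7 lists is the KOiMOS median above 0 with all 4 WTiMOS medians below 0.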

How the data were processed

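RNA of sorted MPP3 was measured by RNA sequencing from low-input cDNA libraries. The deposited tables give TPM per gene and library, made by the authors; the submitters' processing notes name HISAT2, StringTie, featureCounts, DESeq2 and the mm10 build without saying which made these values, and no versions are quoted. TPM holds no counts, so depth and counting error are unknown, and no count test was run. Groups were taken from the labels.

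From these values log2(TPM + 1) was computed for genes that reached 1 TPM in 3 or more of the 12 libraries. limma 3.58.1 in R 4.3.3 fitted 4 group means with trended, robust variances, and the difference of steps and each step were tested with Benjamini-Hochberg adjustment over all 12609 genes at 0.05. Adding 1 makes fold changes of low genes too small. Every adjusted p in the text comes from limma.

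The members and gene lists were chosen with earlier results of these data known. Genes named were Bcl11a, Eif2s3y and Xist, up to 12 with the largest difference in each direction among called genes that reached a mean of 5 TPM in a group and did not overlap, up to 4 of each list by smallest p, and the 6 of smallest adjusted p. Other genes, such as Mpo, Kit, Klf1, Fcgr3 and markers of other cells, were added after their values were seen. Alternatives were another pseudocount (0.1), no filter, median-ratio rescaling, a replicate block, weights per table, all 30 libraries with such weights, the spread of each table alone, no trend, removal of GC and length trends, no X- or Y-linked genes, and leaving out each library. Promoters came from RefSeq on GRCm38.p6. A few genes of the lists are not reported by name here.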

Additional observations from a re-analysis of the deposited data

Results flagged for a closer look

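The change from T1 to T2 differed between KOiMOS and WTiMOS by a test of the difference itself in 2632 of 12609 genes (20.9%). Of the 131 named genes 121 passed, a count set by the naming rule, which chose most of them by the same test. For 37 of the named genes both steps were called, in opposite directions, in the common fit and in fits of each table by itself. Values in brackets are the KOiMOS step minus the WTiMOS step in log2(TPM + 1).

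Among the genes with the largest differences these were F10 (4.83), Cx3cr1 (4.25), Spp1 (4.22) and Ly6c2 (4.18), which rose in KOiMOS and fell in WTiMOS, and Paqr5 (-4.35), Hnf4a (-3.09), Vldlr (-2.94), Nefh (-2.52) and Pdcd1lg2 (-2.08), which fell in KOiMOS and rose in WTiMOS. Among monocyte, granule and mast cell genes they were Cpa3 (2.77), Fcer1g (1.97), Ctsg (1.79), Prtn3 (1.22), Igsf6 (3.09), Hp (3.71), Clec12a (3.13) and F13a1 (3.57), with Id2 (3.68), Lgals3 (3.78), Anxa3 (1.84) and Pmaip1 (3.1) moving the same way and Srgn (-0.39) and Apoe (-0.98) the other way. Xbp1, a factor of secretory cells, had a difference of 0.57.

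Proliferation genes were Aurkb (1.27), Rrm2 (1.43) and Plk1 (1.34), with the cyclin gene Ccnd3 at 1.01 and the chaperone gene Hspa8 at 0.47. Stem cell genes were Hlf (-1.69), Hoxa9 (-1.33) and Meis1 (-1.09), and other genes that fell in KOiMOS and rose in WTiMOS were Flt3 (-1.48), Nkg7 (-1.04), Myc (-0.74), Nop56 (-0.45) and Ifitm1 (-1.2).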

How the results depend on the processing

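All 121 named differences kept their direction in the 22 alternatives, and 103 were called in each. The count of called differences ranged from 1876 to 3527 when 1 library was left out. For the KOiMOS step the count was 4607 with a weight for each table, 4510 with all 30 libraries and 4415 with each table fitted by itself, and 1169 to 2334 with 1 library left out. For the WTiMOS step it was 1702, 1556 and 1554 in the first 3 of these settings and 2733 to 4317 with 1 library left out. The replicates of KOiMOS spread less than those of WTiMOS, and these 3 settings let the tables differ in spread. The replicate block gave 2574 differences (954 higher and 1620 lower). Same-numbered T2 and T1 libraries of a table had correlations of -0.059 to 0.037 over genes, after removal of group means. With 3 libraries in each group, these values cannot show whether libraries of a number came from the same animals. Depth is unknown, since TPM holds no counts, and low values could not be given a counting error.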
